A study of Mus musculus with 8 samples.

Results

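The genes described here are 33 genes of DNA replication and S phase, taken from a list of named members and matched to the arrays by gene symbol, and followed in whole melanomas of mice. A probe carried the symbol of 29 of the 33. Of these, 25 passed the filter on dim probes and were tested, among 11661 measurements tested in all. Gins1, Gins2, Rfc3 and E2f8 were not analysed here. Pola1, Prim1, Exo1 and Slbp had probes with a mean log2 value below the filter at 7.242 and were not tested.

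RNA from whole melanomas was measured on 8 Illumina bead arrays, 1 sample to an array, with 2 arrays in each of 4 groups. All mice were C57BL/6 and carried BrafCA, an allele that gives mutant Braf after recombination, and Tyr::CreER, a Cre driven by the tyrosinase promoter of pigment cells that acts when 4-hydroxytamoxifen is present. The drug was painted on the skin of newborns. The WT group had the intact gene for a chain of the type I interferon receptor (Ifnar1+/+) and was sampled at day 38 after the drug, and the SA groups had Ifnar1SA, whose product is known to be degraded less readily, and were sampled at days 20, 38 and 60. The genotype field of the labels was followed, since the treatment protocol names Ifnar1-/- in place of Ifnar1SA. No label states that a group's arrays stand for separate mice, so the p-values reflect the spread between arrays, which may be technical.

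A cell copies its genome in S phase. Before that, the origin recognition complex, Cdc6 and Cdt1 load the ring of Mcm2 to Mcm7 at origins, and Cdc45 and the GINS complex later turn this ring into a working helicase. E2F transcription factors, held back by the retinoblastoma protein and released when cyclin kinases act, are known to drive many of these genes as cells leave G1, and for this reason the group is widely used as a readout of proliferation in tumours.

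Over the 8 arrays, most of the replication genes shared a pattern, highest in SA melanomas at day 38 and lowest at day 60. The mean of the 25 tested genes, each centred on its own mean over the arrays, was 0.14 and 0.64 on the log2 scale on the SA day 38 arrays and 0.09 and 0.07 on the WT day 38 arrays. It was -0.31 and -0.02 at SA day 20 and -0.41 and -0.21 at SA day 60. In bulk tumour, fewer cycling cells and less RNA of these genes per cell cannot be told apart. Both SA day 60 arrays lay below every day 38 array, while the day 20 and day 60 values overlapped. The group means stood in the order SA day 38, WT day 38, SA day 20, SA day 60 for 14 of the 25 genes, an order found in 5.08% of all measurements. The SA day 38 mean was the highest of the 4 for 23 of the 25, against 17.8% of all measurements, and the SA day 60 mean the lowest for 16, against 26.9%.

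**Figure D1:**
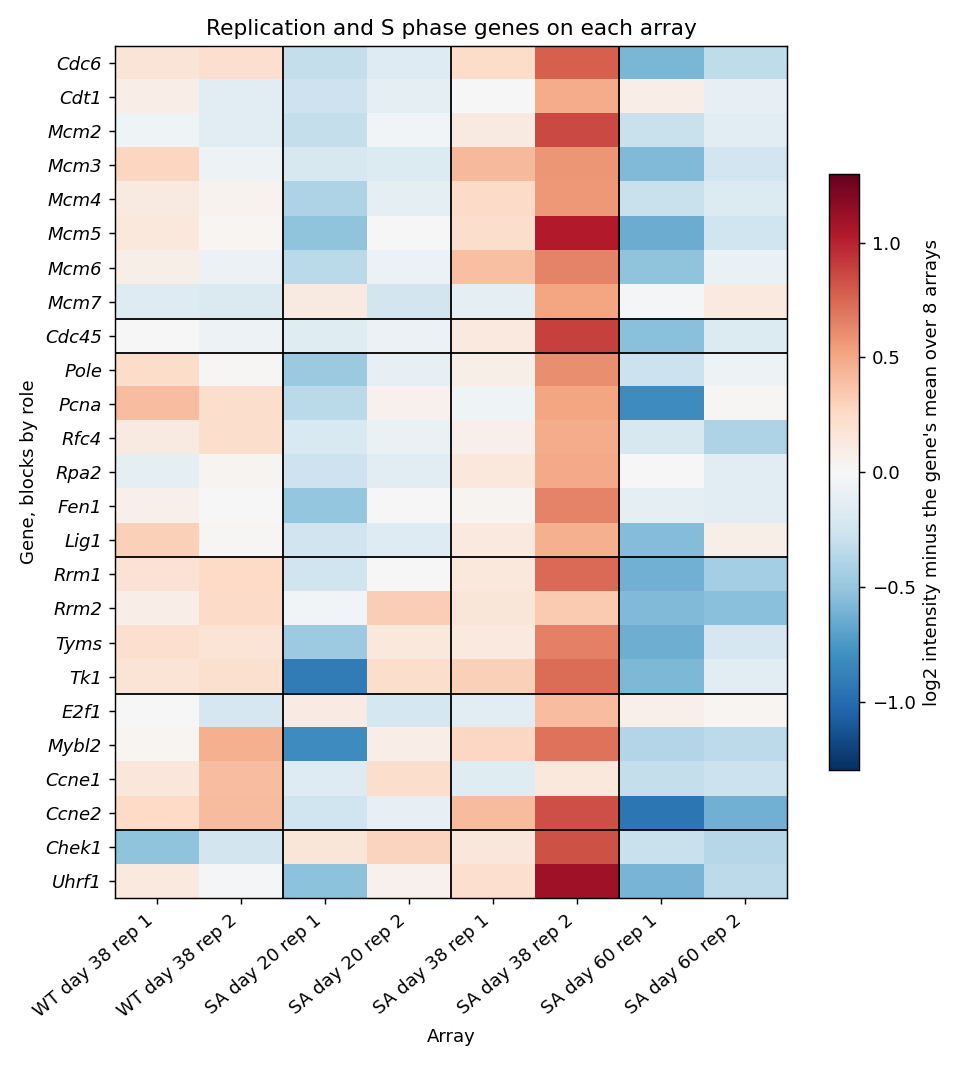
Log2 values of the 25 tested replication genes on each of the 8 arrays, with each gene centred on its own mean over the arrays; rows are genes ordered by role and columns are arrays ordered by group. SA day 38 replicate 2 holds the highest value of the row for 24 of the 25 genes.

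The arrays of a group were not equally close, and 1 array stood apart in these genes. SA day 38 replicate 2 gave the highest of the 8 values for 24 of the 25 genes, the exception being Ccne1, whereas it was the highest array for 12.6% of all measurements. This was not particular to the replication genes. The same array was highest for 16 of 18 mitosis genes, 12 of 14 hair follicle, 12 of 14 skeletal muscle and 6 of 9 fat cell markers. It was highest for 0 of 11 pigment cell and 0 of 9 macrophage markers. SA day 38 replicate 1 was also above both WT arrays in the mean of the 25, but by little (0.14 against 0.09 and 0.07). SA day 60 replicate 1 was the lowest array for 13 genes and SA day 20 replicate 1 for 8. Between the 2 arrays of a group, 160 measurements differed by over 2-fold in WT, 591 in SA day 38, 1145 in SA day 20 and 574 in SA day 60. For this reason the counts and medians that lead each comparison with SA day 38 are also given without its replicate 2, a step chosen after seeing the data. Replicate 2 was the higher of the 2 arrays for each of the 25 genes. Leaving it out therefore could not change a count of genes with all SA day 38 arrays above another group. Sex could not be told apart from group there either: Xist, the X-inactivation RNA, read 9.69 and 9.20 on the SA day 38 arrays and 6.84 to 7.56 on the other 6, and the Y-linked Eif2s3y read 6.11 and 6.20 there against 11.37 to 11.80.

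The promoter is where E2F factors act on these genes, so the promoter windows of the members were searched for letters of the E2F site and 3 other elements of cell cycle promoters. RefSeq promoter windows, from 250 bases before to 50 bases after each gene start in GRCm38.p6, were found for 27 of the 33 members, 32 windows in all, and 22 of these 27 genes were tested on the arrays. No window was found for Ccne2, Exo1, Gins1, Gins2, Mcm4 and Pole, so nothing is said of their promoters. The E2F letters searched were TTCCCGC or TTCGCGC, and TTGCCGC or TTGGCGC, on both strands, and matches may overlap, since TTCGCGC on 1 strand can share bases with TTGGCGC on the other. At least 1 of them was present in 21 of the 32 windows (65.6%) and in 18 of the 27 genes, against 9.6% of all 32851 windows. The members' windows were richer in G and C than all windows (median 58.0% against 52.7%), and among the 11426 windows within the middle range of the members' GC content (52.6 to 65.9%) the E2F letters were present in 13.0%. They also held more C followed by G (median 21.5 against 7.0 in all windows). Each of the E2F letter strings contains CG, and the windows were not matched on it, so base composition was only partly accounted for.

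CCAAT, the letters bound by NF-Y, was present in 56.2% of the member windows, 37.4% of all windows and 37.9% of those with like GC content. The GC box GGGCGG, known as an SP1 site, was present in 68.8%, 35.7% and 50.5%. The CHR element of G2 and M phase promoters, searched as TTTGAA or TTCGAA, was present in 18.8% of member windows, 19.2% of all windows and 12.8% of those with like GC content. The windows of Ccne1, Cdc45, E2f1, Mcm2, Mybl2, Pcna, Slbp, Tk1 and Tyms held none of the E2F letters, which says only that these letters are not in those windows. A match is a description of the sequence and was not tied to binding in these tumours.

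**Figure D2:**
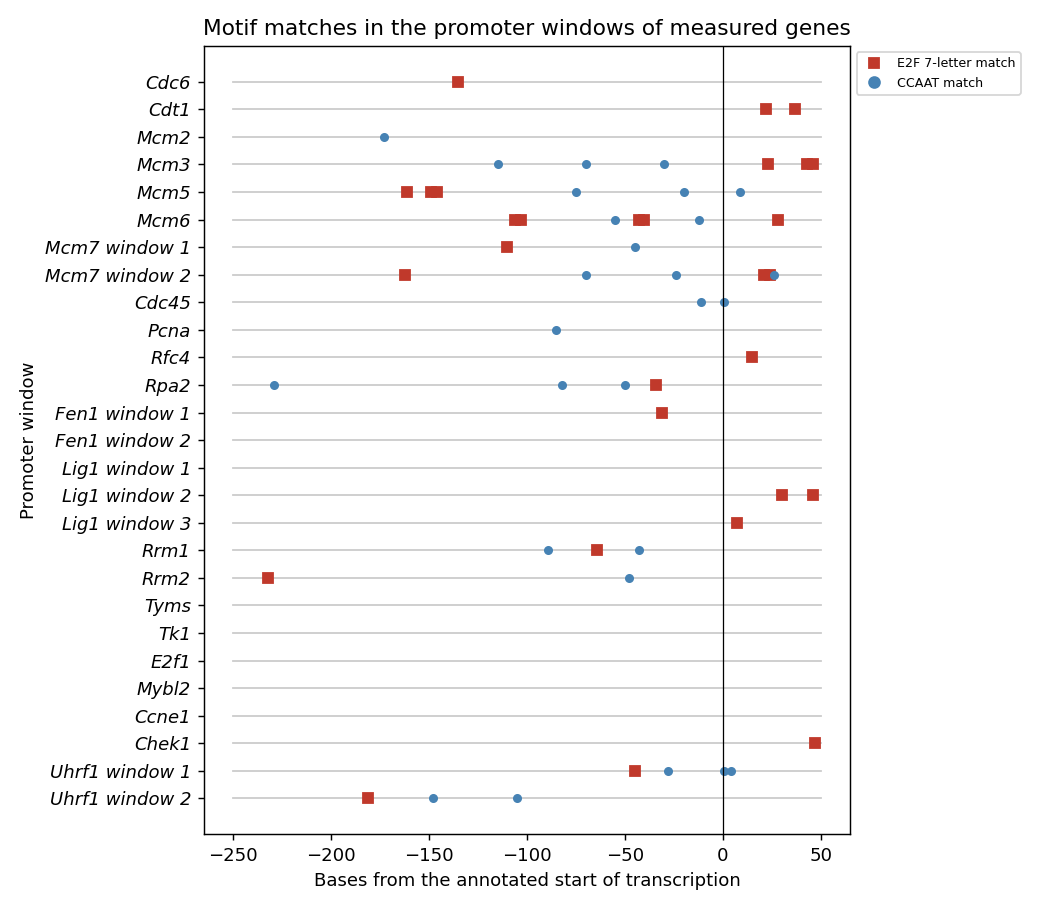
Positions of E2F letters (red squares) and CCAAT (blue circles) in the promoter windows of the replication genes tested on the arrays, with 1 line a window and the x axis in bases from the gene start at 0. Mcm6 carries 5 E2F matches, and Mcm3 and Mcm5 carry 3 each.

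Windows without an E2F match are left out below. The 6 windows shown were picked from members with matches, and show how the E2F letters lie in windows with 1, 3 or 5 matches. Each is written 5′ to 3′ on the strand of the gene, with E2F matches of either strand in capitals.
Mcm3 (chr1:20820263-20820562, minus strand): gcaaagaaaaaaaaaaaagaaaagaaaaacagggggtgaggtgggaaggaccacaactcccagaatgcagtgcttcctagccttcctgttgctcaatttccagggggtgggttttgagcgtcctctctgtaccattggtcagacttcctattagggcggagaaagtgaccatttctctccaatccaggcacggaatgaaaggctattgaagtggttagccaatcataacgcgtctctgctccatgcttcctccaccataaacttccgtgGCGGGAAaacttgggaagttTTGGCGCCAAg
Mcm5 (chr8:75109259-75109558, plus strand): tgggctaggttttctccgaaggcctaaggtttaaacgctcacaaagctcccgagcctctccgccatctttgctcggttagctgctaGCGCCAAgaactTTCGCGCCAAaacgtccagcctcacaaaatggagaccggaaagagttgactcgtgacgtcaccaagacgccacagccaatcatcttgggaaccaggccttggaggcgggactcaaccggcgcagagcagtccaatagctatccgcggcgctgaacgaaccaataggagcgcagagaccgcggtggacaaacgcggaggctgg
Mcm6 (chr1:128359656-128359955, minus strand): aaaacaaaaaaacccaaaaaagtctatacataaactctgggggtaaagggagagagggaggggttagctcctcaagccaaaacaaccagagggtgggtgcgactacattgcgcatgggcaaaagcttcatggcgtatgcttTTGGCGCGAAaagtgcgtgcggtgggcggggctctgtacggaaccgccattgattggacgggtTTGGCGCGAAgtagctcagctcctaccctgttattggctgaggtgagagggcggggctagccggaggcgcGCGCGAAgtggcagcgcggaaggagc
Cdc6 (chr11:98907901-98908200, plus strand): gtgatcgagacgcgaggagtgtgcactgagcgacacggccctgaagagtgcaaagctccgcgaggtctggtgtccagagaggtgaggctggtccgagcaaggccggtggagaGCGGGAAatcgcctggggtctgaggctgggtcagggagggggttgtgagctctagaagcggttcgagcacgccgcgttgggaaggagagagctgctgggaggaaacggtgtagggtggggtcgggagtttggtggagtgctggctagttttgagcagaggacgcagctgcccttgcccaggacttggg
Rrm1 (chr7:102441445-102441744, plus strand): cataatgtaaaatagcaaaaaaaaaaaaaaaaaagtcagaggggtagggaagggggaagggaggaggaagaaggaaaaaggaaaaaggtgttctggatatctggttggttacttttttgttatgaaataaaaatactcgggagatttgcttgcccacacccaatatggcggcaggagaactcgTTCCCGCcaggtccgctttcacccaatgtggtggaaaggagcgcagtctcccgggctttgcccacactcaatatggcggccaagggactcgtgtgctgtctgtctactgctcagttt
Uhrf1 (chr17:56303087-56303386, plus strand): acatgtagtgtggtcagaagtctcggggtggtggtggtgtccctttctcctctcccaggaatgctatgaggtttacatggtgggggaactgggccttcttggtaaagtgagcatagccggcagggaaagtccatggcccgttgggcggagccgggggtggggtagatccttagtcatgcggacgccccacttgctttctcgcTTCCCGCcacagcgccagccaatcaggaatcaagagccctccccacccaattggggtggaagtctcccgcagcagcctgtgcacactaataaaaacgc
Mcm6 holds 5 matches, of which 2 pairs overlap on opposite strands, starting at positions -109 and -46 from the gene start, and the last lies after the start. Mcm3 and Mcm5 hold 3 matches each, those of Mcm3 all after the start (positions 20 to 49) and those of Mcm5 all before it (positions -164 to -143). Cdc6, Rrm1 and this window of Uhrf1 hold 1 match each.

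Of the licensing genes, the loading factor Cdc6 read 8.95 and 9.00 on the log2 scale in WT, 8.48 and 8.61 at SA day 20, 9.02 and 9.55 at SA day 38, and 8.18 and 8.45 at SA day 60. Its 4 groups did not overlap in the order SA day 38, WT, SA day 20, SA day 60. The helicase subunit Mcm3 read 9.01 and 8.66 in WT, 8.52 and 8.56 at SA day 20, 9.15 and 9.31 at SA day 38, and 8.15 and 8.48 at SA day 60, in the same order and again with no overlap. Mcm5, another subunit of the ring, read 12.20 and 12.09 in WT, 11.54 and 12.06 at SA day 20, 12.29 and 13.09 at SA day 38, and 11.42 and 11.81 at SA day 60, so its day 20 and day 60 arrays overlapped. All 8 licensing genes (Cdc6, Cdt1 and Mcm2 to Mcm7) passed the filter.

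Mcm6 and Mcm7, also subunits of the ring, were added to the named genes after their values were seen. Mcm6 read 10.80 and 10.66 in WT, 10.37 and 10.66 at SA day 20, 11.12 and 11.38 at SA day 38, and 10.21 and 10.64 at SA day 60. Both SA day 38 arrays lay above the other 6. Mcm7 read 8.79 and 8.78 in WT, 9.07 and 8.72 at SA day 20, 8.84 and 9.47 at SA day 38, and 8.94 and 9.09 at SA day 60, so its mean was lowest in WT and the SA day 38 value was high on replicate 2 alone. Cdt1, Mcm2 and Mcm4 were also highest on SA day 38 replicate 2.

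The probes of Mcm6 disagreed. Of the 3 Mcm6 probes past the filter, 2 gave deposited intensities of 2850 and 2580 on SA day 38 replicate 2, the highest of the 8 arrays for each. The third, ILMN_1217331, read 323.1 on that array and 1356 to 2766 on the other 7. Its log2 difference was opposite in sign to the other 2 in 3 of the 4 comparisons, at -1.32 for SA against WT at day 38, -1.43 from day 20 to day 38 and 1.13 from day 38 to day 60. The Mcm6 values in this text are those of the brightest probe, ILMN_2803399.

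**Figure D3:**
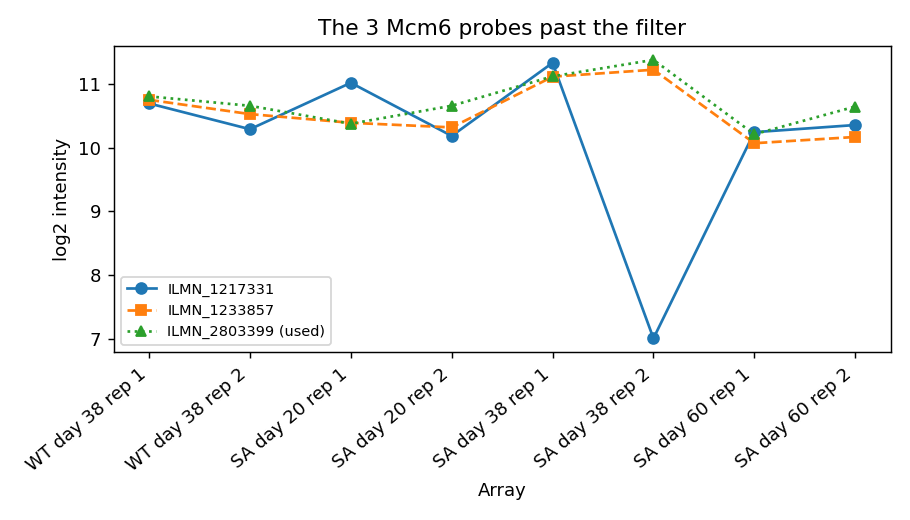
Log2 value of each Mcm6 probe (lines) on the 8 arrays (x axis). ILMN_1217331 drops to 7.01 on SA day 38 replicate 2, where the 2 other probes past the filter reach 11.38 and 11.22.

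Cdc45, which joins the ring to form the active helicase, was the measured member of helicase activation. It read 9.31 and 9.23 in WT, 9.15 and 9.23 at SA day 20, 9.43 and 10.19 at SA day 38, and 8.76 and 9.13 at SA day 60. Both day 60 arrays were below all 6 others and both SA day 38 arrays above all 6 others.

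At the fork, Pole is the catalytic subunit of the leading strand polymerase, Pcna the sliding clamp and Fen1 the nuclease that trims Okazaki fragments. Pole read 9.03 and 8.80 in WT, 8.30 and 8.69 at SA day 20, 8.87 and 9.40 at SA day 38, and 8.51 and 8.73 at SA day 60. Pcna read 8.58 and 8.40 in WT, 7.82 and 8.23 at SA day 20, 8.12 and 8.69 at SA day 38, and 7.36 and 8.19 at SA day 60. For both genes the SA day 38 and WT values overlapped, as did those of day 20 and day 60. Fen1 read 11.73 and 11.67 in WT, 11.16 and 11.67 at SA day 20, 11.71 and 12.31 at SA day 38, and 11.54 and 11.53 at SA day 60. Its SA day 38 arrays lay above both the day 20 and the day 60 arrays. Rfc4, a clamp loader subunit, Rpa2, which coats single strands, and Lig1, the ligase that joins Okazaki fragments, were also highest on SA day 38 replicate 2, with group means spanning 0.52 to 0.58 between the highest and lowest group.

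Of the genes that supply nucleotides, Rrm1 and Rrm2 encode the large and small subunits of ribonucleotide reductase, Tyms makes thymidylate and Tk1 salvages thymidine. Rrm1 read 11.60 and 11.68 in WT, 11.16 and 11.42 at SA day 20, 11.55 and 12.15 at SA day 38, and 10.79 and 10.98 at SA day 60. Rrm2, added to the named genes after its values were seen, read 9.00 and 9.16, 8.87 and 9.23, 9.07 and 9.25, and 8.34 and 8.37 in the same groups. For both subunits the 2 day 60 arrays lay below all 6 others, and for Rrm2 the other 3 groups overlapped. Tyms read 11.25 and 11.21 in WT, 10.56 and 11.16 at SA day 20, 11.16 and 11.69 at SA day 38, and 10.40 and 10.82 at SA day 60. Tk1 read 10.88 and 10.91 in WT, 9.79 and 10.93 at SA day 20, 11.02 and 11.43 at SA day 38, and 10.12 and 10.56 at SA day 60. The gap between the 2 day 20 arrays of Tk1 (SD 0.80) was the widest of any tested member in any group.

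Of the regulators, Ccne2 encodes cyclin E2, which with Cdk2 starts S phase. It read 8.74 and 8.89 in WT, 8.23 and 8.37 at SA day 20, 8.90 and 9.32 at SA day 38, and 7.55 and 7.86 at SA day 60. The 4 groups did not overlap, with SA day 38 highest and SA day 60 lowest, and its group means spanned more (1.41) than those of any other tested member. Its paralogue Ccne1, encoding cyclin E1, read 7.90 and 8.16 in WT, 7.59 and 7.99 at SA day 20, 7.60 and 7.89 at SA day 38, and 7.44 and 7.47 at SA day 60, and was, with Pcna, 1 of 2 members with a higher mean in WT than in SA day 38.

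The transcription factors of the group differed from each other. E2f1, an activating E2F, read 10.96 and 10.75 in WT, 11.07 and 10.74 at SA day 20, 10.82 and 11.37 at SA day 38, and 11.03 and 10.99 at SA day 60, with overlap between all pairs of groups but WT and SA day 60, where both day 60 arrays lay above both WT arrays, and the smallest span of group means among the tested members (0.24). Mybl2, which acts with the MuvB complex on late cell cycle genes, read 9.68 and 10.11 in WT, 8.84 and 9.74 at SA day 20, 9.92 and 10.36 at SA day 38, and 9.27 and 9.32 at SA day 60. Its SA day 38 arrays lay above the day 20 and day 60 arrays and overlapped those of WT. E2f1, Mybl2 and Ccne1 were added to the named genes after their values were seen.

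Uhrf1, which brings the maintenance DNA methyltransferase to newly copied DNA, read 12.11 and 11.95 in WT, 11.44 and 12.04 at SA day 20, 12.20 and 13.08 at SA day 38, and 11.37 and 11.64 at SA day 60. Its SA day 38 arrays lay above the other 6, and its day 20 and day 60 arrays overlapped. Chek1, the checkpoint kinase that guards stalled forks, read 6.74 and 7.03 in WT, 7.42 and 7.56 at SA day 20, 7.41 and 8.09 at SA day 38, and 6.97 and 6.89 at SA day 60. Chek1 had its lowest mean in WT, as Mcm7 and E2f1 did; its WT arrays overlapped those of SA day 60, and 4 of its 8 values lay below 7.242, the level of the filter.

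From day 38 to day 60 in SA melanomas, Ccne2 RNA was called lower, close to the threshold, and the rest of the group was lower without passing the test. All 25 genes had a lower mean at day 60, against 46.3% of all measurements, and for 21 of them both day 60 arrays lay below both day 38 arrays, against 25% of all measurements. The median log2 difference of the 25 was -0.81, beside 0.04 over all measurements. Ccne2 was the 1 gene of the 25 called at a limma adjusted p under 0.05, against 0.377% of all measurements called lower. Its log2 difference was -1.41 (SE 0.20, adjusted p = 0.0447), a 2.65-fold lower level. At an unadjusted p under 0.05, 15 of the 25 were lower, against 11% of all measurements, and 6 were without SA day 38 replicate 2, against 7.72%.

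The next members by adjusted p in this comparison came from several roles. Mcm3 differed by -0.92 (adjusted p = 0.0595), Rrm2 by -0.81 (0.0659), Cdc6 by -0.97 (0.0666), Rrm1 by -0.97 (0.0726) and Mcm6 by -0.82 (0.0818). The differences of Uhrf1 (-1.13, adjusted p = 0.103) and Mcm5 (-1.08, adjusted p = 0.101) were larger than these but their SA day 38 arrays lay further apart (SD 0.62 and 0.57). Cdc45 differed by -0.87, Tk1 by -0.89, Mybl2 by -0.84, Chek1 by -0.82, Tyms by -0.81, Pcna by -0.63, Pole by -0.52 and Fen1 by -0.47, none of which passed the test. The smallest differences were those of Cdt1 (-0.25), Mcm7 (-0.14) and E2f1 (-0.08), and Ccne1 differed by -0.29.

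The call for Ccne2 stood close to the threshold, and the shared direction was kept when any 1 array was left out, with medians of -0.95 to -0.48. Over the alternatives and the arrays left out in turn, the adjusted p of Ccne2 ranged from 0.025 to 0.180, and its log2 difference without an array from -1.62 to -1.20. Its call was lost without either WT array (0.128 for each), either SA day 38 array (0.0977 without replicate 1 and 0.180 without replicate 2) or either SA day 60 array (0.169 and 0.0970), was kept without either day 20 array (0.025), and was lost in the fit with the replicate block (adjusted p = 0.0542), with only the arrays compared (0.0748) and with no filter on dim probes (0.0755). Without SA day 38 replicate 2, 23 of the 25 genes were lower at day 60, against 46.6% of all measurements, and the median was -0.48. The exceptions were Mcm7 (0.17) and E2f1 (0.19), which were then higher at day 60. The remaining day 38 array lay above both day 60 arrays for 21 genes, against 35.3% of all measurements. That count could not change, since replicate 2 was the higher day 38 array for each gene. The second Rrm2 probe gave a difference of -1.55, larger than that of the brightest probe. Of the 3 dimmer Lig1 probes past the filter, 2 were lower at day 60 (-0.36 and -0.66), as the brightest was (-0.54), and 1 was higher (0.27). The dimmer probes of Rpa2 (0.32) and Rfc4 (0.05) were higher, against -0.39 and -0.58 for the brightest probes, and a dimmer Tk1 probe differed by -0.01.

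**Figure D4:**
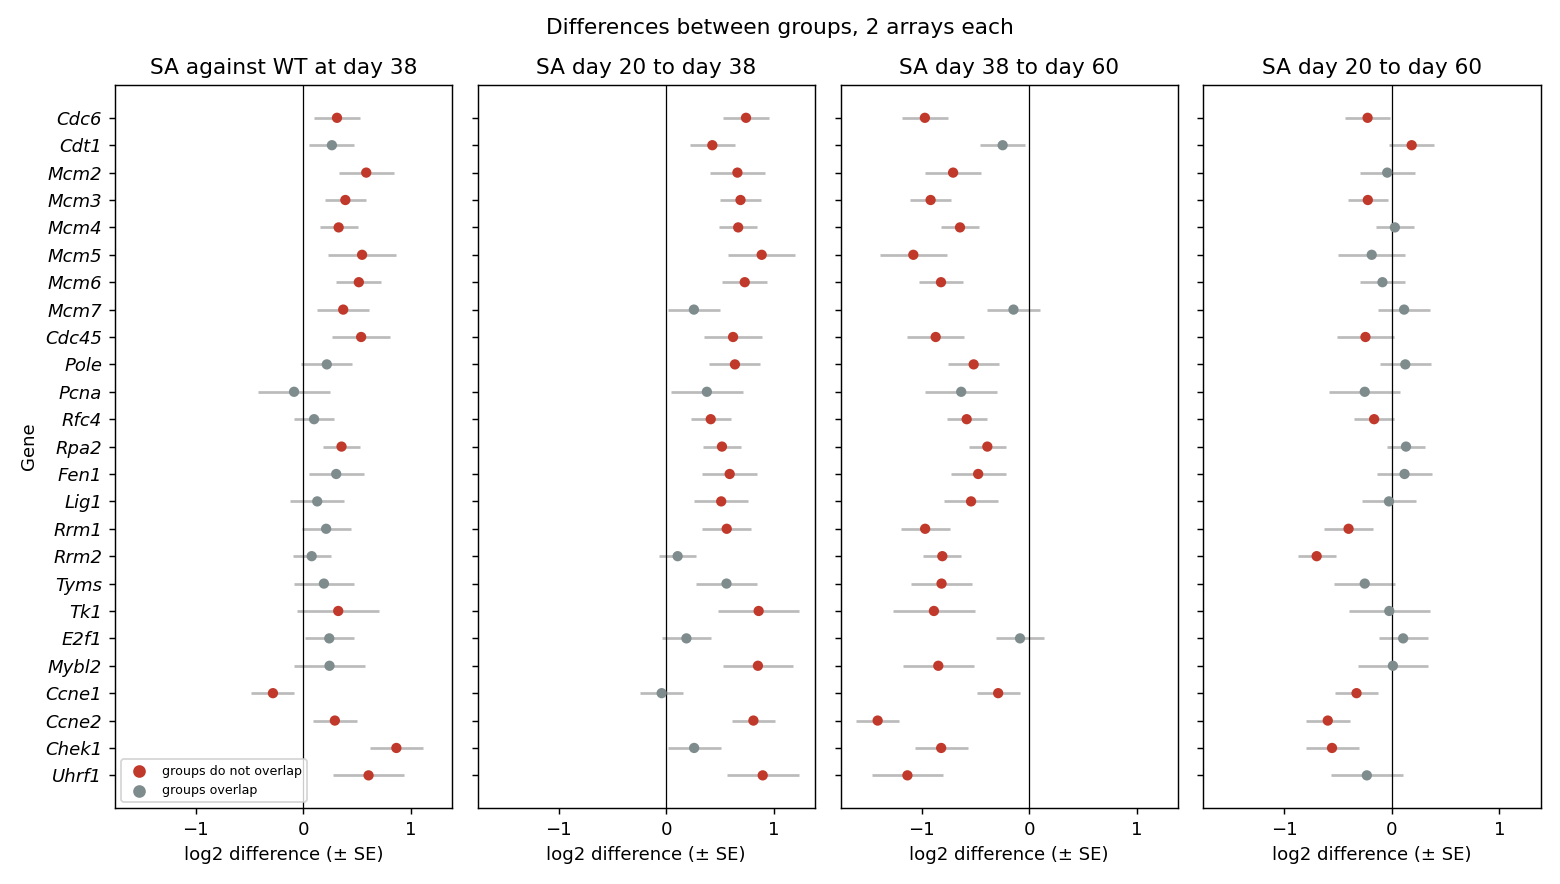
Log2 difference of each of the 25 replication genes in the 4 comparisons, with bars for the standard error of the limma fit and red points where the arrays of the groups do not overlap. All 25 points lie below 0 from SA day 38 to day 60, where Ccne2 at -1.41 is the 1 called gene, and 24 lie above 0 from SA day 20 to day 38.

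From day 20 to day 38 in SA melanomas the group was higher, with no gene called. The mean was higher at day 38 for 24 of the 25 genes, against 51.1% of all measurements, and for 18 both day 38 arrays lay above both day 20 arrays, against 18.7% of all measurements. The median log2 difference was 0.59, beside 0.01 over all measurements. By limma 0 of the 25 were called at an adjusted p under 0.05, against 0.0172% of all measurements in either direction, and 12 were higher at an unadjusted p under 0.05, against 4.77%. This comparison shares the SA day 38 arrays with the one before, so the 2 are not independent.

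The largest differences among the named members from day 20 to day 38 were 0.90 for Uhrf1, 0.89 for Mcm5, 0.86 for Tk1 and 0.85 for Mybl2. Ccne2 differed by 0.81 (SE 0.20, adjusted p = 0.277), Cdc6 by 0.74, Mcm6 by 0.73 and Mcm3 by 0.69. The 2 day 38 arrays of Mcm3 and Mcm6 were closer to each other (SD 0.11 and 0.18) than those of the members with larger differences. Without SA day 38 replicate 2, 21 of the 25 were higher, against 50.2% of all measurements, and the median was 0.30. The remaining array lay above both day 20 arrays for 18 genes, against 34.4% of all measurements, a count that could not change when the higher array was left out. Uhrf1 then differed by 0.46, Mcm5 by 0.49, Cdc6 by 0.48, Cdc45 by 0.24, Rrm1 by 0.27, Fen1 by 0.29 and Pole by 0.38, and Mcm3 by 0.61 and Mcm6 by 0.60. Without SA day 20 replicate 1, Tk1 differed by 0.29 and Mybl2 by 0.40.

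Between genotypes at day 38, the replication genes of SA melanomas were higher than those of WT by an amount that rested largely on 1 array. The mean was higher in SA for 23 of the 25 genes, against 47% of all measurements, and for 13 both SA arrays lay above both WT arrays, against 24.1% of all measurements. The median log2 difference was 0.31, beside -0.02 over all measurements. By limma 0 of the 25 were called at an adjusted p under 0.05, against 0.06% of all measurements in either direction, and 2 were higher at an unadjusted p under 0.05, against 6.23%. Without SA day 38 replicate 2, 16 of the 25 were higher, against 45.8% of all measurements, and the median was 0.05, beside -0.03 over all measurements. The remaining array lay above both WT arrays for 13 genes, against 34.9% of all measurements. That count could not change, since replicate 2 was the higher SA array for each gene. The remaining array lay below both WT arrays for 5 genes, against 43.2%. At an unadjusted p under 0.05, 1 of the 25 was then higher, against 2.9% of all measurements.

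Of the licensing genes, 7 of 8 had both SA arrays above both WT arrays, against 24.1% of all measurements. Leaving out replicate 2, the higher SA array, could not change this count. Mcm5 differed by 0.55, Mcm6 by 0.52 (adjusted p = 0.341), Mcm3 by 0.39, Mcm7 by 0.37 and Cdc6 by 0.31. Chek1 had the largest difference of the members at 0.87 (SE 0.25, adjusted p = 0.257), but its probe was dim. Both of its WT values (6.74 and 7.03) lay below the filter at 7.242, which its mean over all arrays (7.26) barely passed. Its deposited intensities were 300.4 and 324.3 in WT and 363.3 and 466.7 at SA day 38. Its first rank and its place in the counts above are therefore uncertain. Uhrf1 (0.61), Cdc45 (0.54), Tk1 (0.32) and Ccne2 (0.29), like Chek1, had groups that did not overlap. Ccne1 was the 1 member with both SA arrays below both WT arrays, at -0.28, against 30.1% of all measurements. The nucleotide genes other than Tk1 overlapped between genotypes. Without SA day 38 replicate 2 these differences shrank to 0.15 for Mcm5, 0.05 for Mcm7, 0.0477 for Cdc6, 0.17 for Uhrf1, 0.16 for Cdc45, 0.12 for Tk1, 0.08 for Ccne2 and 0.52 for Chek1. Mcm6 (0.39) and Mcm3 (0.31) kept more of theirs, and Ccne1 differed by -0.43.

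From day 20 to day 60 in SA melanomas, the comparison that leaves out day 38, the direction was mixed. The mean was lower at day 60 for 17 genes, against 46.5% of all measurements, and higher for 8, and the median log2 difference was -0.17, beside 0.03 over all measurements. Both day 60 arrays lay below both day 20 arrays for 9 of the 25, against 22.7% of all measurements, and above them for Cdt1, against 30%. By limma 0 of the 25 and 0% of all measurements were called, and 2 of the 25 were lower at an unadjusted p under 0.05, against 9.68%. Rrm2 differed by -0.70 (adjusted p = 0.109), Ccne2 by -0.60 (adjusted p = 0.158), Chek1 by -0.56, Rrm1 by -0.40 and Ccne1 by -0.33. The median of the 25 was 0.02 without SA day 20 replicate 2 and 0.03 without SA day 60 replicate 1.

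Set against WT melanomas of day 38, the SA day 60 arrays were also low in these genes, although genotype and day both differ there and no test was made. Both SA day 60 arrays lay below both WT arrays for 19 of the 25, against 30.4% of all measurements. For 8 of the 25 (Ccne1, Ccne2, Cdc45, Cdc6, Mcm3, Rfc4, Rrm1 and Rrm2) they lay below all 6 other arrays, against 10.5%. This set holds both cyclin E genes and both subunits of ribonucleotide reductase.

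Other genes of the pathway were described by the same counts. From day 38 to day 60, 34 of 36 tested further replication genes had a lower mean, against 46.3% of all measurements, and the median was -0.36. By limma 0 were called, against 0.377% of all measurements called lower, and 12 were lower at an unadjusted p under 0.05, against 11%. The largest differences belonged to Mcm10 (-1.70, adjusted p = 0.0626), which helps to activate the helicase, Clspn (-1.34, adjusted p = 0.0705), the adaptor that passes the fork signal to Chek1, and Rpa3 (-0.92, adjusted p = 0.0792), a subunit of the complex that holds Rpa2. Among 21 further nucleotide synthesis genes 15 were lower with a median of -0.26 and 0 called. Impdh1, of guanine nucleotide synthesis, was higher by 0.85 (adjusted p = 0.0579) in this comparison. Among 14 further E2F, pocket protein and S phase kinase genes 8 were lower with a median of -0.10 and 0 called, and Rbl1, the pocket protein p107, differed by -0.92 (adjusted p = 0.0516). Without SA day 38 replicate 2, 29 of the 36 further replication genes were lower, with a median of -0.28, against 46.6% of all measurements lower. So were 11 of the 21 nucleotide genes and 8 of the 14 E2F and kinase genes.

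Mitosis genes, which act after S phase, were lower too. All 18 tested had a lower mean at day 60 than at day 38, against 46.3% of all measurements, and the median was -1.50. For 17 the groups did not overlap, against 25% of all measurements. By limma 3 of the 18 were called lower, against 0.377% of all measurements. These were Ndc80 of the outer kinetochore, lower by 1.63 (adjusted p = 0.0447), Cdca8 of the chromosomal passenger complex by 1.50 (adjusted p = 0.0420) and Kif11, the spindle motor, by 1.50 (adjusted p = 0.0447), all on the log2 scale. All 3 calls were lost without either WT array (adjusted p = 0.128 to 0.130), without either SA day 38 array (0.0734 to 0.186), without either SA day 60 array (0.0942 to 0.169), with the replicate block (0.0542 to 0.0667), with only the arrays compared and with no filter, and were kept without either day 20 array. Without SA day 38 replicate 2, 17 of the 18 were lower, against 46.6% of all measurements, and the median was -1.28. From day 20 to day 60 the mitosis median was -0.80, where the replication genes had a median of -0.17. Of the 18 mitosis genes 0 were called and 12 were lower at an unadjusted p under 0.05 by limma, against 9.68% of all measurements. The difference between the 2 lists was not tested.

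**Figure D5:**
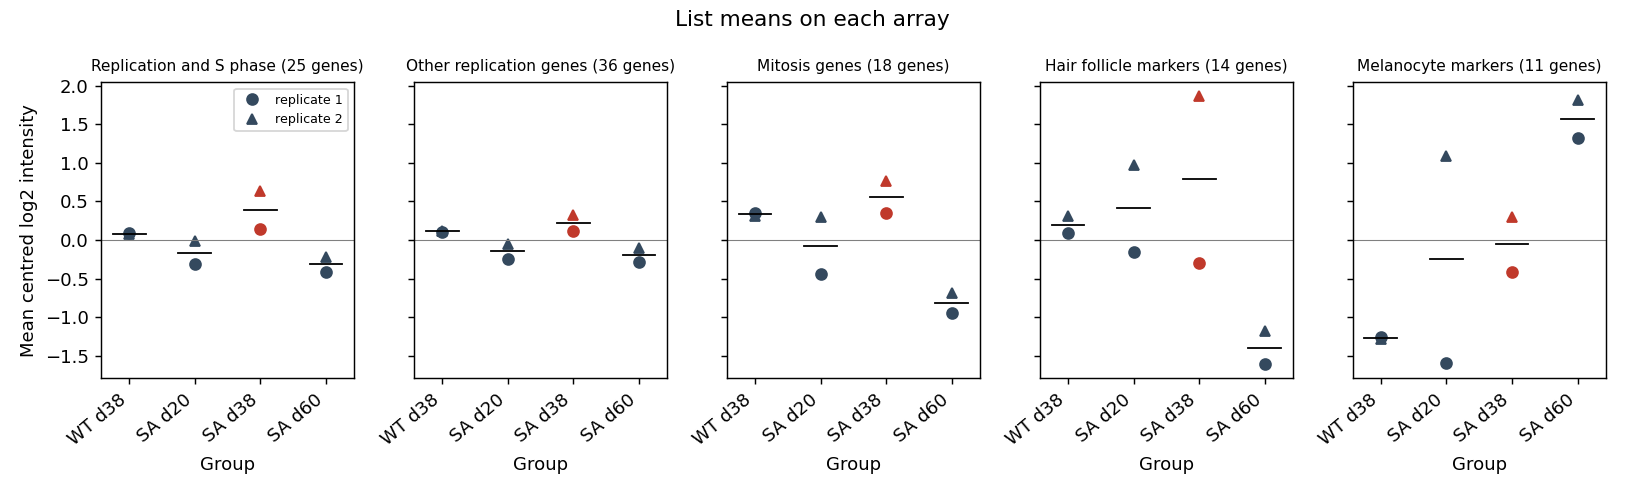
Mean log2 value of 5 gene lists on each array, with every gene centred on its own mean over the 8 arrays; points are arrays (circles replicate 1, triangles replicate 2, SA day 38 in red) and bars are group means. The 25 replication genes reach 0.64 on SA day 38 replicate 2 and -0.41 on SA day 60 replicate 1, and the mitosis genes 0.76 and -0.95 on the same arrays.

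Marker lists of other cell types differed in whether they followed the replication values over the arrays. Hair follicle genes, of which 17 of 22 listed had a probe and 14 passed the filter, summed to intensities of 96517 and 114576 in WT, 75483 and 176091 at SA day 20, 74193 and 297335 at SA day 38, and 23812 and 31026 at SA day 60. They were highest on SA day 38 replicate 2 for 12 of the 14, against 12.6% of all measurements, and lowest at day 60, as the replication genes were. On SA day 38 replicate 1, however, their mean (-0.30) was below both WT arrays (0.09 and 0.31) while that of the replication genes was not.

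Pigment cell markers, of which 12 of 15 listed had a probe, ran in another order. Their summed intensities were 32290 and 27308 in WT, 21747 and 125828 at SA day 20, 51222 and 72095 at SA day 38, and 124515 and 170430 at SA day 60. They were thus highest on 1 day 20 and both day 60 arrays, and the defining marker Dct read 12.77 and 12.60 in WT and 15.78 and 16.09 at SA day 60. Skeletal muscle markers (14 of 15 with a probe) summed to 83866 and 73939 in WT, 399906 and 232003 at SA day 20, 299199 and 482915 at SA day 38, and 178491 and 27620 at SA day 60. Fat cell markers (11 of 12 with a probe) summed to 29342 and 31455, 93018 and 40616, 117004 and 132656, and 24253 and 27189 in the same groups. Both were higher at SA day 38 than in WT or at day 60, and no deposited intensity was below 183.9, so no marker was listed at 0. Macrophage markers (9 of 12 with a probe) summed to 65103 and 60149 in WT, 85970 and 38826 at SA day 20, 61772 and 72492 at SA day 38, and 46222 and 32459 at SA day 60. From day 38 to day 60 the mean was lower for 8 of the 9 macrophage markers, with a median of -0.77, and for 8 of 11 tested fibroblast markers, with a median of -0.57, against 46.3% of all measurements. Fibroblast sums (12 of 12 with a probe) were 306380 and 294643 in WT, 264083 and 222385 at SA day 20, 290659 and 228244 at SA day 38, and 225418 and 208659 at SA day 60. Red cell precursor markers (7 of 10 with a probe) summed to 10742 and 19573 in WT, 17335 and 23877 at SA day 20, 57508 and 44390 at SA day 38, and 54926 and 8400 at SA day 60. All 5 tested had both SA arrays above both WT arrays at day 38, against 24.1% of all measurements, with a median of 1.92. The centred means of T cell, B cell, endothelial and keratinocyte markers ranged from -0.36 to 0.85 over the 8 arrays, beside -0.41 to 0.64 for the replication genes. The highest was the B cell mean on SA day 38 replicate 1, from 2 tested genes. T cell means (9 tested) were -0.30 and -0.35 in WT and 0.37 and -0.11 at SA day 38. Keratinocyte means (12 tested) were -0.21 and -0.23 in WT, 0.30 and 0.25 at SA day 20, -0.12 and -0.22 at SA day 38, and 0.10 and 0.13 at SA day 60. The part of these tissue contents in the replication values was not tested.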

How the data were processed

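Biotin-labelled RNA was read on Illumina bead arrays. The deposited table held linear intensity values of 25697 probes, from 183.9 to 71767. The array medians of 409.3 to 410 show that the deposited intensities were already normalized between arrays, and GenomeStudio 1.8 is named per the submitters' processing notes. A second table was not used here: its 16 columns of per-sample values carry slide positions or no sample name. Other steps of the authors are not given in the sources used here, and the precision is limited by the number of arrays, 2 in each group. 1 item of the mouse model shared by all groups is not reported here.

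The intensities were corrected with limma's normexp (saddle, offset 16) and log2 transformed without another normalization step. The size of a dim probe's log2 difference depends on this correction and its offset. Probes with a mean log2 value above the 40th percentile (7.242) were kept, and the brightest probe stood for a gene. The platform annotation gave 23978 probes 1 gene symbol, 0 several and 1719 none, which left 11661 measurements to test, 10771 of them named. Levels were not compared between probes of different genes. A limma model (limma 3.58.1, R 4.3.3) with 1 mean a group was fitted to all 8 arrays, with 4 residual and 2.49 prior degrees of freedom, and p-values were adjusted by Benjamini-Hochberg over all 11661 measurements, with calls at 0.05. The 4 comparisons share groups and are not independent. In simulated data for SA day 38 to day 60 with 11661 genes, 43 of 100 genes changed by 1 on the log2 scale and 91 of 100 changed by 3 were called.

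Replicate numbers in the titles did not pair the samples: deviations from the group means of same-numbered arrays correlated between -0.20 and 0.11 over the 6 pairs of groups. The members, the pathway and marker lists and the motifs were chosen with earlier results of these data known. Named members are those called in any comparison, or else the 3 of each role with the largest span of group means, with Mcm6, Mcm7, Rrm2, E2f1, Mybl2 and Ccne1 added after their values were seen. Alternatives were the background correction, its offset, cyclic loess, the filter, the mean of a gene's probes, the arrays in the fit, the replicate block, an intensity trend and leaving out each array. Promoter sequences are RefSeq's, of GRCm38.p6.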

Additional observations from a re-analysis of the deposited data

How the results depend on the processing

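Of 439 values of named members under the alternatives other than leaving out an array, 434 kept their direction and side of the threshold. Much of this was fixed beforehand. The filter, the intensity trend, the replicate block and the arrays in the fit do not change a log2 difference, and most values were not called to begin with. The exception in direction was Mcm6 for SA against WT at day 38, which turned to -0.0915 with the mean of its probes, 1 of which read low on SA day 38 replicate 2. Members called from day 38 to day 60 were 1 in the main setting (Ccne2), 0 with no filter on dim probes, with only the arrays compared and with the replicate block, 0 of the 21 still tested with the filter at the 60th percentile, which removed Ccne2, and 2 with the mean of a gene's probes (Ccne2 and Rrm2, adjusted p = 0.0457). The adjusted p of Ccne2 was then 0.0755 with no filter, 0.0748 with only the arrays compared and 0.0542 with the replicate block, and the block changed no other call of a member.

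Counts of all measurements called moved more. For SA against WT they were 7 in the main setting, 4 with no background correction, 36 with only the arrays compared and 1 with the replicate block. From day 20 to day 38 they were 2, against 21 with no background correction, 10 with offset 50, 15 with the 60th percentile filter, 1 with only the arrays compared, 1 with the replicate block and 14 with the intensity trend. From day 38 to day 60 they were 127, against 365, 3 with no filter, 332 with the 60th percentile filter, 44 with only the arrays compared and 1 with the replicate block; 365 was the count with no background correction. The cause was not tested.

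Leaving out 1 array at a time, all measurements called ranged from 1 to 42 for SA against WT, 1 to 46 from day 20 to day 38, 1 to 930 from day 38 to day 60 and 0 to 915 from day 20 to day 60. The median of the 25 replication genes ranged from 0.0477 to 0.51, 0.30 to 0.83, -0.95 to -0.48 and -0.34 to 0.03 in the same comparisons, and turned sign in the last without SA day 20 replicate 2 or SA day 60 replicate 1. Members called from day 38 to day 60 ranged from 0 to 3, the 3 being Ccne2, Mcm3 and Rrm2 without either day 20 array. In that comparison Mcm7 ranged from -0.46 to 0.17 and E2f1 from -0.36 to 0.19, both higher at day 60 without SA day 38 replicate 2. Dim probes such as those of Chek1 and Ccne1, near the filter, have differences of uncertain size, since these depend on the background correction. For Ccne2 the difference from day 38 to day 60 was -0.89 with no background correction, -1.28 with offset 50 and -1.41 in the main setting.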
